A study of Mus musculus with 15 samples.

Results

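The genes described here are 31 genes of the p53 pathway in adult neural stem cells (aNSCs): the gene of p53 itself (Trp53), its inhibitors Mdm2 and Mdm4, and 28 genes known as p53 targets or as effectors in the same pathway. They were chosen by name as known members of the pathway, and all 31 were found among the 53801 genes of the count table. All 31 passed the filter on low counts in each comparison. The study sequenced poly(A) RNA of aNSCs isolated out of the subventricular zone of the brain, from mice labelled 2 months old, on a C57BL6/J-129sv background, and grown in suspension. All mice carried the Rosa26-CreERT2 transgene, a Cre recombinase in every cell that works only once 4-hydroxytamoxifen (4-OHT) is added, together with loxP-flanked Trrap, either as 1 floxed and 1 normal allele (Fl/+) or as a floxed pair (Fl/Fl). Trrap is an adaptor protein of histone acetyltransferase complexes.

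Each of the 3 groups held 5 cultures. Fl/+ untreated cultures and Fl/+ 4-OHT cultures were grown from the same mice, numbered 19, 24, 26, 35 and 36. The Fl/Fl 4-OHT cultures came from mice 27, 28, 29, 37 and 39. In every list of values below, libraries stand in that order. The labels give 5 days of treatment, whereas the methods of the study describe a shorter exposure to 4-OHT that was followed by culture in fresh medium. By the labels 3 cultures of each group were from males and 2 from females. Comparing Fl/Fl 4-OHT with Fl/+ 4-OHT cultures asked what Trrap deletion changed when both groups had the drug and an active Cre. Comparing Fl/+ 4-OHT with Fl/+ untreated cultures asked what the treatment changed, and 4-OHT, Cre activity and the loss of 1 Trrap allele cannot be told apart in it. No untreated Fl/Fl culture was analysed here. The comparisons share groups, so their values are set side by side and were not correlated. In these bulk cultures, fewer cells with a transcript and less of it per cell cannot be told apart.

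p53 is a transcription factor that cells stabilise after DNA damage and other stress. It binds a DNA element made of a pair of half-sites and switches on genes that halt the cell cycle, repair DNA or start apoptosis. MDM2, a ubiquitin ligase and itself a p53 target, marks p53 for destruction, and its relative MDM4 blocks the activity of p53, so the pathway carries its own brake. In neural stem cells p53 is known as a restraint on proliferation and self-renewal. Much of its regulation acts on the protein, which these data do not measure.

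The promoters are shown where a searched motif lay among the bases before the start. RefSeq windows of 300 bases, 250 before and 50 after a start on GRCm38.p6, were at hand for 23 of the 31 genes. They were searched on both strands for the p53 consensus element, taken as a pair of half-sites of 10 bases at most 13 bases apart, and for the GC box GGGCGG, the motif of SP-family factors. The p53 element with at most 1 mismatch lay in 2 of the 32 windows of these genes, against 0.627% of all 32851 windows. Those were an upstream start of Cdkn1a, with 0 mismatches and a spacer of 12 bases, and the promoter of Ccng1, with 1 mismatch and no spacer. In the first windows below, capitals mark these half-sites and, for Cdkn1a, also the best pair without a spacer, which lay at -51 to -32 from the start and had 1 mismatch.
Cdkn1a, upstream start (chr17:29090729-29090978, + strand): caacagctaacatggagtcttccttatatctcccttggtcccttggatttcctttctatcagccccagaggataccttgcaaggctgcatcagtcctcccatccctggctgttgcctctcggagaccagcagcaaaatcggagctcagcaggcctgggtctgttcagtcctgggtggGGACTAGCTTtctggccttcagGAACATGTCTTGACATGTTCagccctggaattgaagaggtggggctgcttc
Ccng1 (chr11:40755287-40755536, - strand): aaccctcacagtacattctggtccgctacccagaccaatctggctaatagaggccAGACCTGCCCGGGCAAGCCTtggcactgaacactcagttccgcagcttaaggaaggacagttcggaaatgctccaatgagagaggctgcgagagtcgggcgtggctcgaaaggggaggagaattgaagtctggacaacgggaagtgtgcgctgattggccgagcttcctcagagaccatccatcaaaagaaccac
At least 1 GC box was found in 23 of the 32 windows (71.9%), against 35.7% of all windows. All windows were taken whether or not their gene was expressed in aNSCs, whereas the members were. For both motifs the shares thus compare unlike sets. Of the windows of members that rose after 4-OHT, 10 of 16 held one, and of those of members that fell after Trrap deletion, 5 of 6. The next windows have the GC boxes in capitals. Cdkn1a was chosen to set its main start beside the upstream one, and Apaf1 because it fell most of all members after Trrap deletion.
Cdkn1a, main start (chr17:29093519-29093768, + strand): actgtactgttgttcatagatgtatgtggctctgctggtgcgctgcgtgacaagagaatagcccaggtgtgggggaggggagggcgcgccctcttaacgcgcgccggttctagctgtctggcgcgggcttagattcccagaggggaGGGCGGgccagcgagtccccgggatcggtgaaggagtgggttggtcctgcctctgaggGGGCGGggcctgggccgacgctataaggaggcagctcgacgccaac
Apaf1 (chr10:91082744-91082993, - strand): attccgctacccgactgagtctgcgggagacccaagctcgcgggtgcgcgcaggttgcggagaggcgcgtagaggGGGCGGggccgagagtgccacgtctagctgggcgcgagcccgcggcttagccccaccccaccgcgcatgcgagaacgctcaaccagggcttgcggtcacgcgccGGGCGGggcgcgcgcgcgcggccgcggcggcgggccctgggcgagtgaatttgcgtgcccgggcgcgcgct
A match describes these letters only and says nothing on binding in aNSCs. Trp53 had neither motif within its window.

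The libraries held 25720034 to 32187097 counts. At that depth 3 counts, taken as the limit of detection, correspond to at most 0.118 CPM (counts per 1000000 counts of a library). Trrap was at 179 to 214 CPM in Fl/+ untreated, 138 to 204 CPM in Fl/+ 4-OHT and 82.8 to 142 CPM in Fl/Fl 4-OHT cultures. It fell after Trrap deletion, with a log2 fold change of -0.64 ± 0.160, adjusted p = 0.0115, and the highest Fl/Fl library, that of mouse 29, lay within the Fl/+ 4-OHT range. Without that library the Trrap change was -0.79. The library labelled Fl/Fl 39 is labelled female but had Ddx3y, a Y-linked gene, at 54.0 CPM and Xist, the RNA of the inactive X, at 0.313 CPM, so it goes against its label. In the library of mouse 36 after 4-OHT both were found, Xist at 74.7 CPM and Ddx3y at 52.9 CPM. The untreated library of mouse 36, also labelled male, had Xist at 5.89 CPM, against 0.154 and 0.289 CPM in the other untreated males, and Ddx3y at 47.7 CPM. Markers of neural stem cells such as Sox2, Nes and Fabp7 were found in every group, summed over 10 genes to between 6700 and 11400 CPM. Of these 10, 3 (Fabp7, Hes5 and Sox2) were lower after Trrap deletion at an adjusted p under 0.05 and 0 higher. Over all genes 15.0% were lower and 16.8% higher. Against Fl/+ untreated cultures 4 were lower in Fl/Fl 4-OHT cultures, against 15.1% of all genes. Their part in the changes of p53 pathway genes was not tested. Cx3cr1, Aif1, Ptprc and Tmem119 of microglia, Cdh5 and Cldn5 of endothelium, and Dcn and Lum of fibroblasts were at 3 counts or fewer in every library. Other genes of these lists were found: Kdr at 4.12 to 8.01 CPM, Col1a1 at 0.663 to 3.30 CPM, and Csf1r and P2ry12 at up to 0.868 and 1.04 CPM. The 6 microglial genes summed to 0.688 to 2.01 CPM in Fl/Fl 4-OHT cultures and to at most 0.616 CPM in Fl/+ cultures, and their part in the changes of p53 pathway genes was not tested.

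Changes are given below as a log2 fold change ± its SE, with the adjusted p of edgeR's quasi-likelihood test (Benjamini-Hochberg over all genes tested). After 4-OHT, Cdkn1a, Mdm2, Mdm4, Ccng1, Plk2, Psrc1, Aen, Apaf1, Fas, Tnfrsf10b, Pidd1, Polk and Zmat3 rose. These 13 of the 31 genes were called higher at an adjusted p under 0.05, where 7.34% of all genes tested were called higher. Called lower were 0 of 31, against 6.45% of all genes, although 1 member was lower at an unadjusted p under 0.05. DESeq2, which also tested genes of low count, called 14 members higher and 0 lower, against 5.38% and 5.07% of all genes. Over all genes 1088 were called higher and 956 lower. Library size as the sole scaling gave 1396 and 712, where 14 members were called higher and 0 lower. The estimate was above 0 for 24 genes, with a median log2 fold change of 0.50, against -0.01 over all genes. In 12 of the 31 genes every Fl/+ 4-OHT library lay above every untreated one, as in 6.52% of all genes, and in 0 of 31 every one lay below, as in 5.47%. With the mouse as a replicate block, which the shared mice call for, 17 members were called higher, against 13.8% of all genes, and 0 lower, against 11.9%. All 13 stayed called, and the genes added were Pmaip1, Eda2r, Perp and Sesn1. Values after 4-OHT in the figures, in DESeq2 and in fits with a library left out are without this block. So are those of single genes unless the block is named. Without the 4-OHT library of mouse 36, 12 members were called higher and 0 lower, against 5.74% and 4.19% of all genes. Without its untreated library 14 were called higher and 1 (Ddb2) lower, against 9.01% and 7.73%.

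After Trrap deletion fewer members were called, and mostly lower. Of the 31 genes, 7 were called lower, where 15.0% of all genes were, and 1 was called higher, where 16.8% were. The genes that fell were Trp53, Apaf1, Plk2, Pidd1, Psrc1, Trp53inp1 and Zmat3, and the gene that rose was Ddb2. The median log2 fold change was -0.13, against 0.02 over all genes. In 4 genes (Trp53, Apaf1, Plk2 and Polk) every Fl/Fl library lay below every Fl/+ 4-OHT one, as in 11.4% of all genes, and in Ddb2 every one lay above, as in 11.2%. The share of members called, 25.8%, was below that of all genes tested, 31.7%. Without the library labelled Fl/Fl 39, 5 were called lower and 1 higher, against 13.3% and 13.4% of all genes. Without mouse 36 after 4-OHT, 9 were called lower and 1 higher, against 14.2% and 13.7%.

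**Figure D1:**
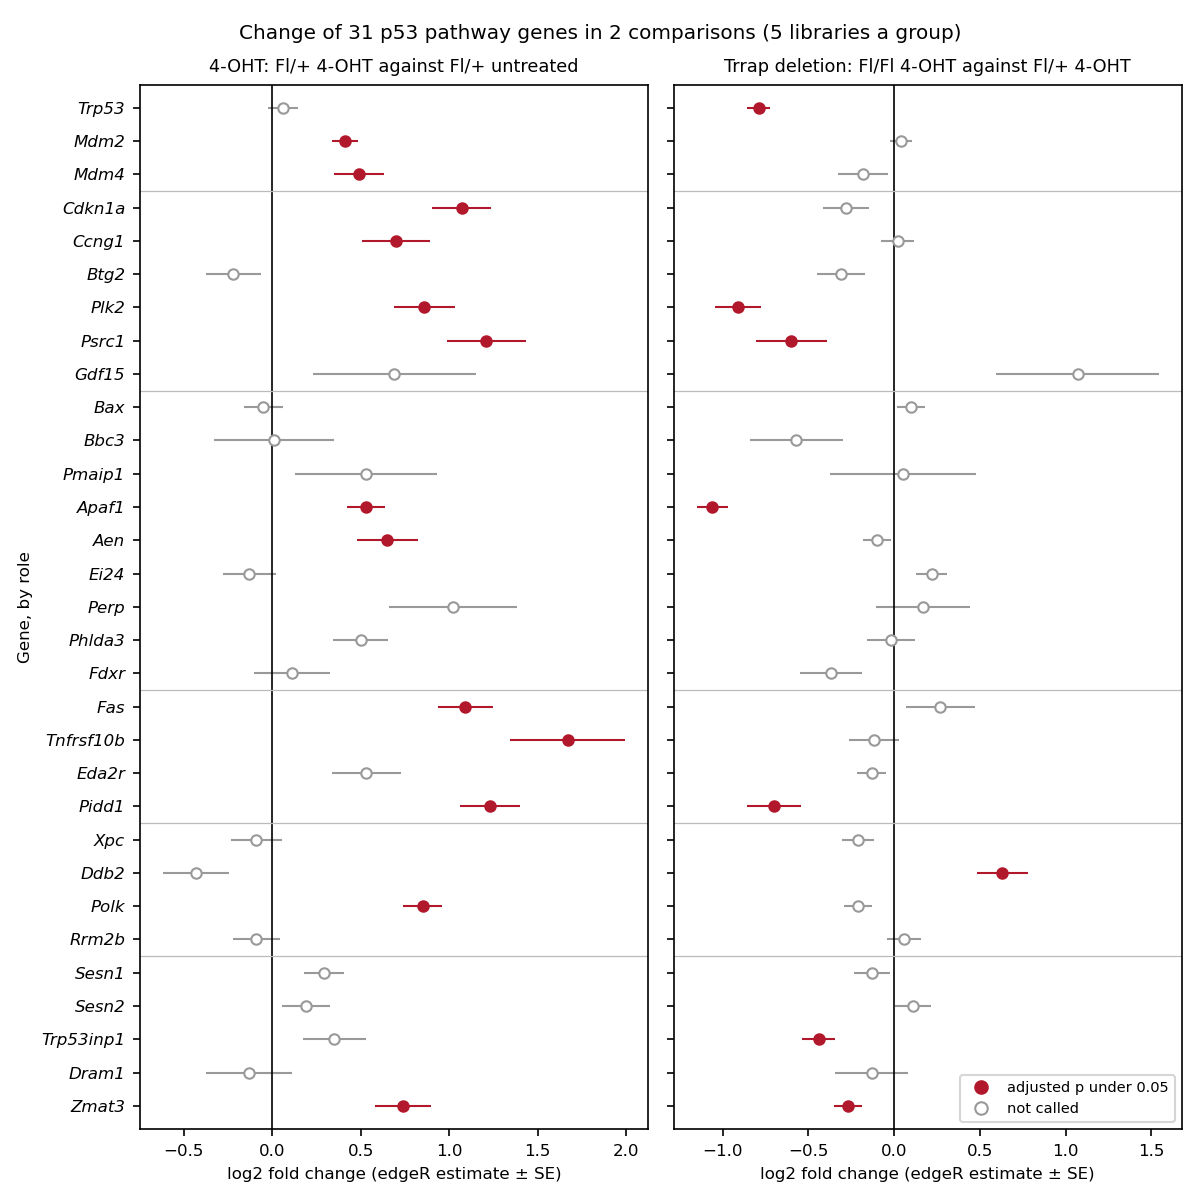
Log2 fold change of each of the 31 genes after 4-OHT (left) and after Trrap deletion (right), estimated by edgeR with 5 libraries a group. The mouse was not used as a block. Bars are ± SE, filled points had an adjusted p under 0.05, and grey lines part the roles. On the left 13 filled points lie above 0 and 0 below; on the right 7 lie below 0 and 1 above.

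Set against the untreated Fl/+ cultures, the Fl/Fl 4-OHT cultures had 11 of 31 genes called higher and 3 called lower, where 15.7% and 15.1% of all genes were. With scaling by library size alone the calls over all genes moved from 2357 higher and 2263 lower to 3150 and 1603, and those of members to 14 and 3. The 3 that were lower were Trp53, Apaf1 and Btg2. Those that were higher were Cdkn1a, Mdm2, Ccng1, Psrc1, Gdf15, Aen, Perp, Fas, Tnfrsf10b, Polk and Zmat3. The largest log2 fold change was that of Gdf15, at 1.76 ± 0.462, adjusted p = 0.0152, followed by Tnfrsf10b, at 1.54 ± 0.348, adjusted p = 0.00755. Under the alternatives Gdf15 ranged from 1.51 to 1.98 and Tnfrsf10b from 1.4 to 2.04, so their order is not firm. The median over the 31 genes was 0.30, against 0.00 over all genes. In 3 genes the call is lost when a single library is left out, with adjusted p between 0.0535 and 0.111. For Aen this held in 6 of 10 cases (untreated 19 and 26, Fl/Fl 27, 28, 37 and 39), for Psrc1 in 6 (untreated 26, 35 and 36, Fl/Fl 27, 28 and 29) and for Zmat3 in 8 (untreated 19, 24 and 26, and all 5 Fl/Fl libraries). This comparison shares its untreated libraries with that of the Fl/+ cultures. Mdm4 was at 0.30 ± 0.158, adjusted p = 0.167 and Pidd1 at 0.52 ± 0.195, adjusted p = 0.0627.

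Compared per length of exon, Ccng1 had the highest level of the 31 genes in each group, at 93.6, 152 and 153 CPM per kb in Fl/+ untreated, Fl/+ 4-OHT and Fl/Fl 4-OHT cultures. Cdkn1a stood at 63.0, 132 and 108 CPM per kb and Bax at 83.9, 81.3 and 86.3 CPM per kb. These 3 genes held the first 3 places in each group. At the lower end, Perp, Dram1 and Gdf15 were below 2 CPM per kb in every group. Trp53 itself was at 25.5, 26.4 and 15.2 CPM per kb.

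**Figure D2:**
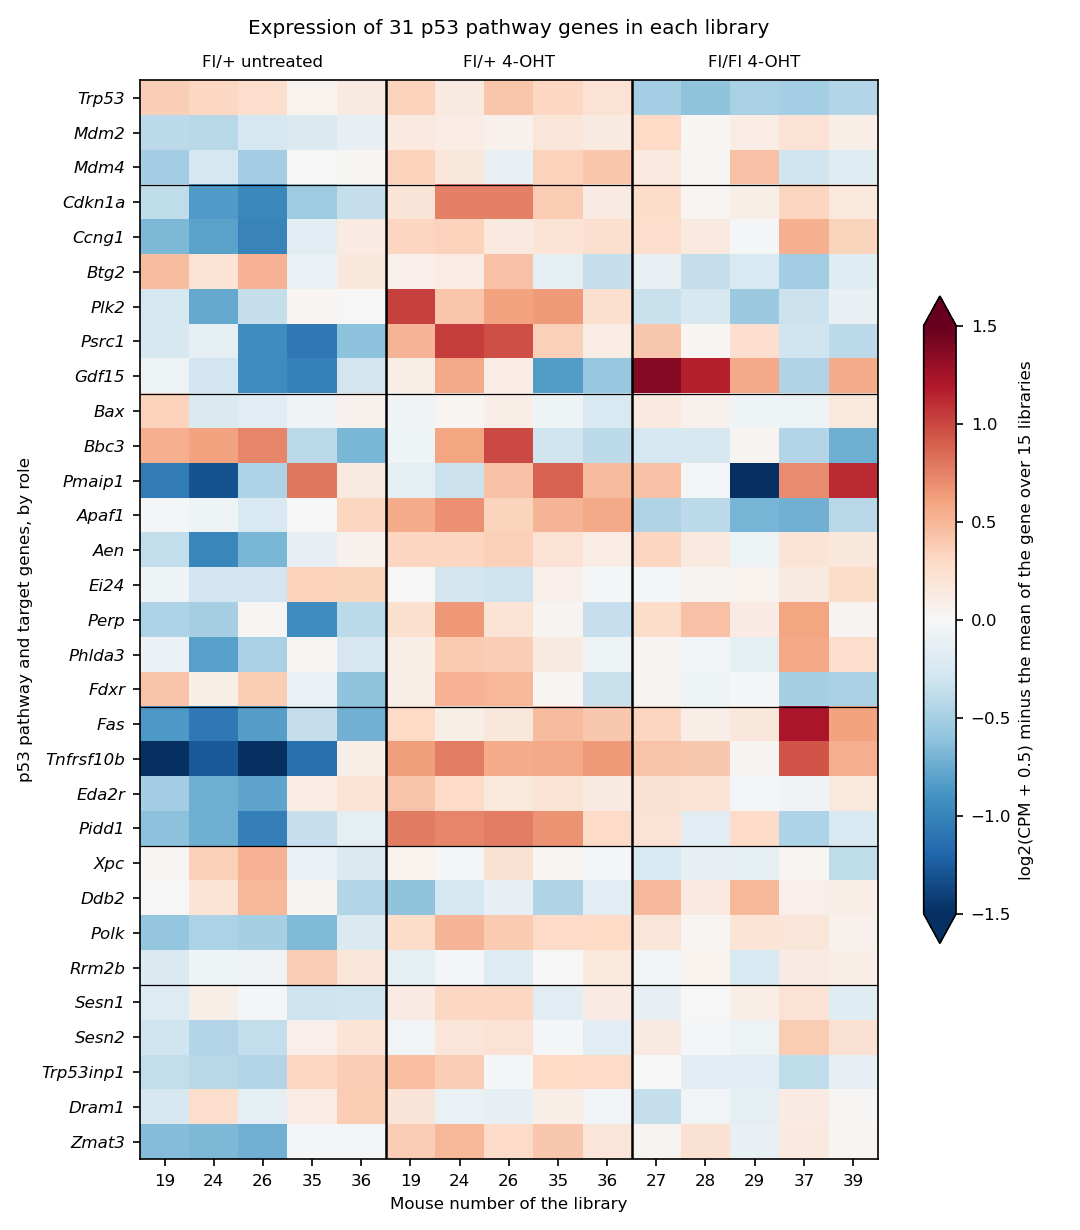
Expression of the 31 genes (rows, by role) in each of the 15 libraries (columns, by mouse number), as log2(CPM + 0.5) minus the mean of the gene over all libraries. The scale ends at -1.5 and 1.5. The Fl/+ untreated block is mostly blue in rows such as Cdkn1a, Fas and Tnfrsf10b, and the Fl/Fl block is blue in Trp53 and Apaf1.

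Among the regulators, the transcript of p53 fell after Trrap deletion while that of its ubiquitin ligase did not pass the test. Trp53 (chr11:69580359-69591873 on GRCm38) was at 113, 109, 105, 90.8 and 96.6 CPM in Fl/+ untreated, 111, 96.1, 117, 109 and 102 CPM in Fl/+ 4-OHT and 61.4, 57.3, 62.4, 61.2 and 64.6 CPM in Fl/Fl 4-OHT cultures. Every Fl/Fl library lay below every other library, and their range was narrow. The log2 fold change was -0.79 ± 0.0668, adjusted p = 5.23e-05 after Trrap deletion and -0.73 ± 0.0780, adjusted p = 0.000137 against untreated Fl/+ cultures. It was 0.06 ± 0.0833, adjusted p = 0.688 after 4-OHT, where 3 of 5 mice were higher. Among the 31 genes Trp53 had the smallest p after Trrap deletion.

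Mdm2 was at 56.7, 55.7, 62.3, 64.0 and 68.4 CPM in Fl/+ untreated, 82.8, 80.3, 78.2, 84.3 and 81.6 CPM in Fl/+ 4-OHT and 91.8, 76.3, 80.5, 86.5 and 79.9 CPM in Fl/Fl 4-OHT cultures. All treated libraries, of either genotype, lay above all untreated ones. Mdm2 rose after 4-OHT, with a log2 fold change of 0.41 ± 0.0745, adjusted p = 0.00543, in 5 of 5 mice. After Trrap deletion its log2 fold change was 0.04 ± 0.0635, adjusted p = 0.640, and the groups overlapped.

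Mdm4, the inhibitor that lacks a strong ligase activity of its own, was at 43.8, 52.1, 43.8, 62.6 and 63.4 CPM in Fl/+ untreated, 80.2, 70.6, 58.3, 79.8 and 84.3 CPM in Fl/+ 4-OHT and 69.9, 63.5, 85.2, 51.0 and 55.3 CPM in Fl/Fl 4-OHT cultures. It rose after 4-OHT in 5 of 5 mice, with a log2 fold change of 0.49 ± 0.139, adjusted p = 0.0381, although the groups overlapped. With the mouse as a block it was 0.50 ± 0.0896, adjusted p = 0.00589. Without the block the call is lost in 7 of 10 cases when a single library is left out, at adjusted p between 0.0590 and 0.0885 (mice 19, 24 and 26 untreated, and mice 19, 24, 35 and 36 after 4-OHT), and at 0.0503 without a filter on low counts. After Trrap deletion the value was -0.18 ± 0.145, adjusted p = 0.363.

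The genes of cell cycle and growth arrest had 4 of 6 members called higher after 4-OHT, against 7.34% of all genes, and 2 of 6 called lower after Trrap deletion, against 15.0%. Cdkn1a (chr17:29090976-29100727) encodes p21, an inhibitor of cyclin-dependent kinases and the best known p53 target. It was at 260, 188, 173, 234 and 265 CPM in Fl/+ untreated, 389, 573, 573, 443 and 371 CPM in Fl/+ 4-OHT and 410, 346, 362, 424 and 380 CPM in Fl/Fl 4-OHT cultures. Untreated libraries were all below treated ones. The log2 fold change after 4-OHT was 1.07 ± 0.165, adjusted p = 0.00246. The Fl/+ 4-OHT mean was 2.10 times the untreated one, and every mouse was higher. After Trrap deletion it was -0.28 ± 0.135, adjusted p = 0.140. The Fl/Fl cultures still stood above the untreated Fl/+ ones, with a log2 fold change of 0.79 ± 0.127, adjusted p = 0.00119.

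Ccng1, cyclin G1, recruits a phosphatase to MDM2. It was at 280, 256, 223, 399 and 485 CPM in Fl/+ untreated, 558, 568, 494, 517 and 527 CPM in Fl/+ 4-OHT and 537, 495, 442, 645 and 565 CPM in Fl/Fl 4-OHT cultures. The untreated libraries were split by mouse: mice 19, 24 and 26 were low and mice 35 and 36 high, whereas the Fl/+ 4-OHT libraries were close together and the Fl/Fl ones spread more widely. It rose after 4-OHT, with a log2 fold change of 0.70 ± 0.191, adjusted p = 0.0338, and 0.76 ± 0.161, adjusted p = 0.0121 with the block. Without the block, leaving out a single library lifted the adjusted p to between 0.0601 and 0.0804 in 7 of 10 cases (mice 19, 24 and 26 untreated, and mice 19, 24, 35 and 36 after 4-OHT). Its value after Trrap deletion was 0.02 ± 0.0969, adjusted p = 0.870.

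Plk2, a polo-like kinase induced by p53, rose after 4-OHT and fell after Trrap deletion. It was at 68.6, 47.7, 63.6, 83.4 and 81.4 CPM in Fl/+ untreated, 167, 109, 124, 128 and 96.8 CPM in Fl/+ 4-OHT and 65.0, 69.0, 55.3, 65.2 and 75.9 CPM in Fl/Fl 4-OHT cultures. The Fl/+ 4-OHT libraries stood above all others, and the Fl/Fl values overlapped those of untreated cultures. The log2 fold change was 0.86 ± 0.173, adjusted p = 0.00909 after 4-OHT and -0.91 ± 0.136, adjusted p = 0.000833 after Trrap deletion. Between Fl/Fl 4-OHT and Fl/+ untreated cultures it was -0.05 ± 0.143, adjusted p = 0.832. The Fl/+ 4-OHT libraries enter both of the first comparisons, as the higher group for this gene.

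Psrc1 encodes a microtubule-binding protein of the mitotic spindle. It was at 82.9, 88.4, 50.9, 46.4 and 63.7 CPM in Fl/+ untreated, 140, 202, 191, 126 and 106 CPM in Fl/+ 4-OHT and 130, 100, 117, 79.5 and 74.6 CPM in Fl/Fl 4-OHT cultures. Among Fl/+ 4-OHT cultures, the 2 labelled female (mice 24 and 26) were highest. After 4-OHT the log2 fold change was 1.21 ± 0.221, adjusted p = 0.00580, and after Trrap deletion -0.60 ± 0.208, adjusted p = 0.0484. The fall lies at the threshold. Its adjusted p was 0.0720 with the labelled sex as a covariate, which the library labelled Fl/Fl 39 goes against. It was 0.0511 in 1 fit of all 15 libraries and 0.0578 with library size alone. Leaving out 1 of 6 libraries (mice 19, 24 and 26 after 4-OHT, or Fl/Fl 28, 37 and 39) gave 0.0641 to 0.100.

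Btg2 and Gdf15 make up the rest of that group. Btg2, an antiproliferative gene known from neural progenitors, was lower in 5 of 5 mice after 4-OHT, with a log2 fold change of -0.22 ± 0.155, adjusted p = 0.384, which did not pass the test. It was lower in Fl/Fl 4-OHT than in Fl/+ untreated cultures, with a log2 fold change of -0.53 ± 0.126, adjusted p = 0.00874. Its means were 148 ± 24.8 CPM, 127 ± 26.7 CPM and 102 ± 11.2 CPM (SD, n = 5) in Fl/+ untreated, Fl/+ 4-OHT and Fl/Fl 4-OHT cultures. Gdf15, a secreted stress cytokine, was low throughout, at 0.308 to 1.05 CPM, 0.416 to 1.93 CPM and 0.696 to 3.70 CPM. Fl/Fl 4-OHT cultures were higher than untreated ones, with a log2 fold change of 1.76 ± 0.462, adjusted p = 0.0152, and against Fl/+ 4-OHT the value was 1.07 ± 0.474, adjusted p = 0.106.

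**Figure D3:**
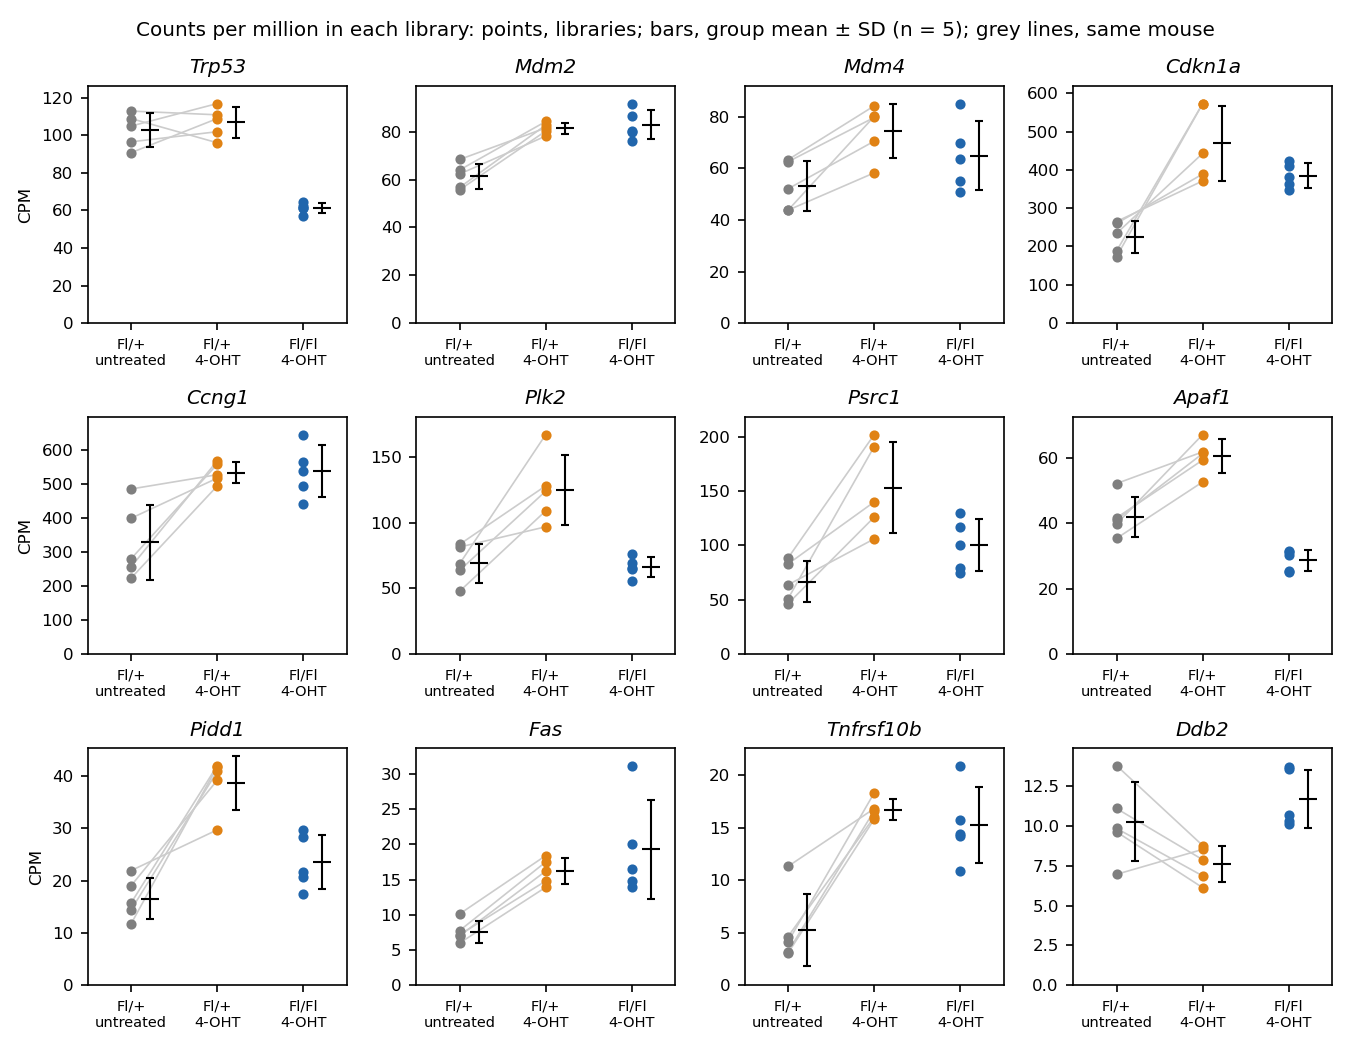
CPM of 12 of the genes in each library (points), with the group mean ± SD (black, n = 5) and grey lines joining cultures of 1 mouse. Axes start at 0. For Trp53 and Apaf1 the 5 Fl/Fl points lie below all Fl/+ points, and for Plk2 the 5 Fl/+ 4-OHT points lie above all others.

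Of the genes of intrinsic apoptosis, Apaf1 stood out. It encodes the scaffold of the apoptosome, on which caspase-9 is activated (chr10:90989311-91082770). It was at 41.1, 39.8, 35.4, 41.7 and 52.2 CPM in Fl/+ untreated, 61.4, 67.2, 52.7, 59.4 and 61.9 CPM in Fl/+ 4-OHT and 30.3, 31.5, 25.5, 25.1 and 31.1 CPM in Fl/Fl 4-OHT cultures. The 3 groups did not overlap: Fl/+ 4-OHT was highest and Fl/Fl lowest. After 4-OHT the log2 fold change was 0.53 ± 0.109, adjusted p = 0.00985, and after Trrap deletion -1.06 ± 0.0915, adjusted p = 5.51e-05, so the Fl/Fl mean was 0.474 times that of Fl/+ 4-OHT cultures. Fl/Fl 4-OHT cultures were also lower than untreated ones, with a log2 fold change of -0.54 ± 0.117, adjusted p = 0.00565.

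Aen, an exonuclease that digests DNA in apoptosis, was at 70.7, 46.2, 56.8, 84.0 and 95.8 CPM in Fl/+ untreated, 115, 115, 118, 107 and 99.0 CPM in Fl/+ 4-OHT and 115, 102, 86.8, 106 and 103 CPM in Fl/Fl 4-OHT cultures. It rose after 4-OHT, with a log2 fold change of 0.65 ± 0.171, adjusted p = 0.0286, and mouse 36 showed the smallest step. Without the block that call is lost in 6 of 10 cases of a left-out library, at adjusted p between 0.0502 and 0.0662 (mice 19 and 26 untreated, and mice 19, 24, 26 and 35 after 4-OHT), and with the block the adjusted p was 0.0200. After Trrap deletion the value was -0.10 ± 0.0835, adjusted p = 0.389.

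Pmaip1 and Perp were called after 4-OHT with the block and not in the main test, which has none. Pmaip1 (Noxa), which binds and inhibits survival proteins of the BCL2 family, was at 5.36, 4.43, 8.29, 20.5 and 12.8 CPM in Fl/+ untreated, 10.5, 9.21, 16, 21.9 and 16.4 CPM in Fl/+ 4-OHT and 16, 11.4, 3.31, 19.3 and 26.0 CPM in Fl/Fl 4-OHT cultures. Values ranged widely within each group, and all 5 mice were higher after 4-OHT. Its log2 fold change was 0.53 ± 0.402, adjusted p = 0.418 without and 0.67 ± 0.166, adjusted p = 0.0213 with the block. Perp, a membrane protein that promotes apoptosis, was at 0.507, 0.488, 0.909, 0.231 and 0.552 CPM, 1.15, 1.68, 1.11, 0.936 and 0.599 CPM and 1.18, 1.39, 1.02, 1.59 and 0.938 CPM in the same order of groups. It was higher in 5 of 5 mice, with 1.02 ± 0.360, adjusted p = 0.0830 without and 1.03 ± 0.325, adjusted p = 0.0478 with the block. Some alternatives without the block also called Perp higher. The adjusted p was 0.0395 with the labelled sex and 0.0345 with the mouse number series as a covariate. It was 0.0435 in 1 fit of all 15 libraries and 0.0479 without untreated mouse 26.

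The other 5 genes of intrinsic apoptosis were not called in the main test of any comparison. Bax, which opens the mitochondrial outer membrane, had means of 132 ± 21.4 CPM, 128 ± 10.9 CPM and 136 ± 10.7 CPM (SD, n = 5), with log2 fold changes of -0.05 ± 0.111, adjusted p = 0.826 after 4-OHT and 0.10 ± 0.0817, adjusted p = 0.368 after Trrap deletion. Bbc3 (Puma), an activator of Bax, differed between mice: untreated, mice 19, 24 and 26 were at 36.6, 38.3 and 41.8 CPM, and mice 35 and 36 at 18.7 and 15.4 CPM. Its log2 fold change was 0.01 ± 0.341, adjusted p = 0.994 after 4-OHT and -0.57 ± 0.269, adjusted p = 0.128 after Trrap deletion. Phlda3, a repressor of Akt, was higher after 4-OHT in 5 of 5 mice, with 0.50 ± 0.154, adjusted p = 0.0534 and, with the block, 0.52 ± 0.163, adjusted p = 0.0506, just short of the threshold. Of 19 alternatives, 8 called it higher and 11 did not. Among the 8 were DESeq2 (adjusted p = 0.0342) and library size alone (adjusted p = 0.0288). Ei24, a protein of the endoplasmic reticulum, was at 0.22 ± 0.0901, adjusted p = 0.0884 after Trrap deletion, and Fdxr, a reductase of mitochondrial electron transfer, at -0.37 ± 0.182, adjusted p = 0.142.

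All 4 genes of the group of death receptors and Pidd1 had estimates above 0 after 4-OHT, and 3 were called higher, against 7.34% of all genes. Fas, the receptor of Fas ligand, was at 6.98, 5.96, 7.14, 10.1 and 7.73 CPM in Fl/+ untreated, 16.2, 13.9, 14.8, 18.4 and 17.5 CPM in Fl/+ 4-OHT and 16.5, 14.0, 14.8, 31.2 and 20.1 CPM in Fl/Fl 4-OHT cultures. Every treated library was above every untreated one, and Fl/Fl 37 was highest. The log2 fold change was 1.09 ± 0.156, adjusted p = 0.00166 after 4-OHT and 0.27 ± 0.202, adjusted p = 0.338 after Trrap deletion.

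Tnfrsf10b, the mouse receptor of the death ligand TRAIL, had the largest log2 fold change of the 31 genes after 4-OHT. It was at 3.18, 4.12, 3.04, 4.62 and 11.3 CPM in Fl/+ untreated, 16.6, 18.3, 15.8, 16 and 16.8 CPM in Fl/+ 4-OHT and 14.4, 14.2, 10.9, 20.9 and 15.7 CPM in Fl/Fl 4-OHT cultures. The untreated library of mouse 36 stood apart from the other untreated ones, while the Fl/+ 4-OHT values were nearly equal. The log2 fold change after 4-OHT was 1.67 ± 0.324, adjusted p = 0.00826, and 2.16 without that untreated library. After Trrap deletion it was -0.12 ± 0.146, adjusted p = 0.558.

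Eda2r, a receptor of ectodysplasin, was at 60.5, 52.2, 50.0, 94.1 and 101 CPM in Fl/+ untreated, 117, 106, 96.9, 100 and 95.0 CPM in Fl/+ 4-OHT and 102, 100, 85.2, 83.4 and 96.6 CPM in Fl/Fl 4-OHT cultures. As for Ccng1, untreated mice 35 and 36 lay close to the treated libraries. It was 0.53 ± 0.195, adjusted p = 0.0955 after 4-OHT without the block and 0.59 ± 0.175, adjusted p = 0.0417 with it, with 4 of 5 mice higher. Pidd1 is the death-domain protein that activates caspase-2. Its values were 15.7, 14.4, 11.7, 19.0 and 21.9 CPM in Fl/+ untreated, 42.0, 40.9, 41.8, 39.2 and 29.7 CPM in Fl/+ 4-OHT and 28.3, 21.6, 29.7, 17.5 and 20.7 CPM in Fl/Fl 4-OHT cultures. Fl/+ 4-OHT libraries lay above all untreated ones, with mouse 36 the lowest of them. Pidd1 rose after 4-OHT, with a log2 fold change of 1.23 ± 0.168, adjusted p = 0.00141, and fell after Trrap deletion, with -0.70 ± 0.159, adjusted p = 0.00720.

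The genes of DNA repair and nucleotide supply split. Polk, a polymerase that copies past damaged bases, was at 13.2, 14.3, 14.0, 12.5 and 17.1 CPM in Fl/+ untreated, 24.3, 28.6, 26.3, 24.6 and 24.7 CPM in Fl/+ 4-OHT and 22.8, 20.5, 23.1, 22.7 and 21 CPM in Fl/Fl 4-OHT cultures. The groups did not overlap, and replicates were close together. The log2 fold change was 0.85 ± 0.109, adjusted p = 0.00106 after 4-OHT, the smallest p of the 31 genes there, and -0.21 ± 0.0817, adjusted p = 0.0709 after Trrap deletion, which DESeq2 called and edgeR did not. Ddb2, which recognises ultraviolet damage in DNA, was at 9.63, 11.1, 13.8, 9.85 and 6.96 CPM in Fl/+ untreated, 6.12, 7.88, 8.77, 6.86 and 8.53 CPM in Fl/+ 4-OHT and 13.6, 10.7, 13.7, 10.1 and 10.3 CPM in Fl/Fl 4-OHT cultures. It was the member that rose after Trrap deletion, with a log2 fold change of 0.63 ± 0.148, adjusted p = 0.00829, and all Fl/Fl libraries were above all Fl/+ 4-OHT ones. After 4-OHT it was -0.43 ± 0.187, adjusted p = 0.156, with 4 of 5 mice lower, and Fl/Fl 4-OHT and untreated cultures gave 0.20 ± 0.187, adjusted p = 0.452. Xpc, another damage sensor, and Rrm2b, a ribonucleotide reductase subunit, were not called in the main test of any comparison, with means between 25.7 and 31.9 CPM and between 17.9 and 19.1 CPM.

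In the group of stress, autophagy and RNA binding, Zmat3 and Trp53inp1 were called. Zmat3, an RNA-binding zinc-finger protein, was at 97.7, 95.8, 93.4, 152 and 152 CPM in Fl/+ untreated, 199, 217, 188, 204 and 175 CPM in Fl/+ 4-OHT and 158, 180, 142, 170 and 157 CPM in Fl/Fl 4-OHT cultures. Untreated libraries lay below all Fl/+ 4-OHT ones, and mice 35 and 36 were highest among them. It rose after 4-OHT, with a log2 fold change of 0.74 ± 0.157, adjusted p = 0.0120, and fell after Trrap deletion, with -0.27 ± 0.0816, adjusted p = 0.0266. Without Fl/Fl 27, 29 or 39 the adjusted p of the fall was 0.0552, 0.0517 or 0.0527, and in 1 fit of all 15 libraries 0.146.

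Trp53inp1, a stress protein of the nucleus and of autophagosomes, was at 88.0, 85.6, 84.0, 142 and 148 CPM in Fl/+ untreated, 156, 147, 113, 141 and 139 CPM in Fl/+ 4-OHT and 115, 101, 101, 87.2 and 105 CPM in Fl/Fl 4-OHT cultures. It fell after Trrap deletion, with a log2 fold change of -0.44 ± 0.0979, adjusted p = 0.00670, and after 4-OHT it was 0.35 ± 0.179, adjusted p = 0.222, with 3 of 5 mice higher. Sesn1, a sestrin that restrains mTORC1 under stress, was at 52.5, 63.9, 59.1, 48.4 and 48.6 CPM, 65.4, 74.8, 74.7, 53.9 and 65.1 CPM and 55.2, 59.9, 64.1, 69.9 and 52.7 CPM in the same order of groups. All 5 mice were higher after 4-OHT, with 0.29 ± 0.113, adjusted p = 0.107 without and 0.29 ± 0.0701, adjusted p = 0.0182 with the block. Its relative Sesn2 was 0.19 ± 0.136, adjusted p = 0.396 after 4-OHT, and Dram1, a lysosomal protein of autophagy, was at 0.528 to 1.21 CPM over all libraries. Neither was called in the main test of any comparison.

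Genes beside the 31 were taken from lists of the wider pathway. Of 33 further p53 targets tested after 4-OHT, 8 were called higher and 0 lower, against 7.34% and 6.45% of all genes. Of those not called lower, 3 had an unadjusted p under 0.05 in that direction. DESeq2 called 9 higher and 2 lower, and the block gave 12 higher and 2 lower, against 13.8% and 11.9%. The 4 with the smallest p were Lif, a cytokine, at 3.52 ± 0.421, adjusted p = 0.00102, the thiamine transporter Slc19a2 at 0.87 ± 0.148, adjusted p = 0.00407, the receptor Notch1 at 0.39 ± 0.0814, adjusted p = 0.0104 and the nuclear body protein Pml at 0.63 ± 0.135, adjusted p = 0.0116. The list's median was 0.23. After Trrap deletion 6 of 34 were called higher and 5 lower, with a median of -0.01. Both shares lay near those of all genes, 16.8% and 15.0%. Of the genes called, Ninj1 (0.74 ± 0.103, adjusted p = 0.000532) and Cpt1c (0.67 ± 0.117, adjusted p = 0.00193) rose, and Notch1 (-0.60 ± 0.0937, adjusted p = 0.00100) and Ccng2 (-0.87 ± 0.163, adjusted p = 0.00278) fell.

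p53 is known to lower a set of genes, mostly of S phase and mitosis, through p21 and the DREAM repressor complex. Of 18 such genes tested after Trrap deletion, 13 were called lower and 0 higher, against 15.0% and 16.8% of all genes. DESeq2 called 0 higher and 14 lower, against 10.1% and 9.57% of all genes, and 0 against 15 had an unadjusted p under 0.05. With 1 of the 10 libraries left out, 12 to 15 were called lower: 12 without Fl/Fl 29 and 15 without the library labelled Fl/Fl 39. The 4 with the smallest p were Cdc25c, a phosphatase that starts mitosis, at -1.47 ± 0.216, adjusted p = 0.000767, the ribonucleotide reductase subunit Rrm2 at -1.42 ± 0.212, adjusted p = 0.000860, the proliferation marker Mki67 at -1.35 ± 0.244, adjusted p = 0.00243 and cyclin A2 (Ccna2) at -1.25 ± 0.227, adjusted p = 0.00250. The list's median was -0.95. E2f1 had the one estimate above 0, at 0.22 ± 0.178, adjusted p = 0.362. In the same comparison Trp53 fell, at -0.79, adjusted p = 5.23e-05, and Cdkn1a was not called, at -0.28, adjusted p = 0.14. After 4-OHT Cdkn1a rose, at 1.07, adjusted p = 0.00246. The part of p53, p21 and DREAM in the changes of this list was not tested. Against Fl/+ untreated cultures only 3 of the 18 were lower in Fl/Fl 4-OHT cultures (Cdc25c, Rrm2 and Mki67) and 1 was higher (E2f1, at 1.01 ± 0.292, adjusted p = 0.0236), against 15.1% and 15.7% of all genes, with a median of -0.53. With a library left out, 1 was called lower without Fl/Fl 28, 29 or 37 and 8 without untreated mouse 26, and otherwise 2. E2f1 was no longer called without untreated mouse 24 or without Fl/Fl 28 or 39. After 4-OHT all 18 estimates were above 0, with a median of 0.37, but edgeR and DESeq2 called 0 of them, 1 had an unadjusted p under 0.05, and with the block 7 were called higher, against 13.8% of all genes. Without untreated mouse 36, edgeR called 4 of them higher. Of 7 further genes named as CDK inhibitors, beside that of p21, 4 fell after Trrap deletion, against 15.0% of all genes. These were Cdkn2d at -0.56 ± 0.0937, adjusted p = 0.00151, Cdkn3 at -1.21 ± 0.261, adjusted p = 0.00571, Cdkn1b (p27) at -0.44 ± 0.0977, adjusted p = 0.00649 and Cdkn1c (p57) at -0.99 ± 0.308, adjusted p = 0.0312. After 4-OHT edgeR and DESeq2 called 0 of these 7, and 1 had an unadjusted p under 0.05. With the block Cdkn2b, an inhibitor of CDK4 and CDK6, was higher (0.66 ± 0.157, adjusted p = 0.0188) and Cdkn1b lower (-0.26 ± 0.0792, adjusted p = 0.0449). This 1 higher and 1 lower of 7 stood against 13.8% and 11.9% of all genes.

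Upstream of p53, 13 genes of DNA damage kinases and sensors were tested. After 4-OHT, Trp53bp1, a protein recruited to double-strand breaks, rose, with 0.36 ± 0.0681, adjusted p = 0.00597, and Rad9a, part of the checkpoint clamp, with 0.57 ± 0.147, adjusted p = 0.0264. These 2 of 13 stood against 7.34% of all genes. Only 1 was called without untreated mouse 26 or 35, or without mouse 19, 35 or 36 after 4-OHT, and 3 without untreated mouse 36. The block called 5 higher and 0 lower, against 13.8% and 11.9%, adding the damage mediator Mdc1 (0.73 ± 0.146, adjusted p = 0.00939) and the kinases Chek2 (0.52 ± 0.137, adjusted p = 0.0268) and Atm (0.38 ± 0.108, adjusted p = 0.0347). After Trrap deletion 2 were called lower and 1 higher, against 15.0% and 16.8% of all genes. Rad9a (-0.79 ± 0.101, adjusted p = 0.000345) and the kinase Atm (-0.48 ± 0.134, adjusted p = 0.0186) fell, and Nbn (0.40 ± 0.0935, adjusted p = 0.00783), a subunit of the break sensor MRN, rose. Among 19 p53 modifiers and cofactors, 6 fell after Trrap deletion and 1 rose, in all 36.8% of the list against 31.7% of all genes. The rise was lost without mouse 19, 24 or 35 after 4-OHT and without Fl/Fl 28, 29 or 39. The 4 with the smallest p were Ing1, at -0.66 ± 0.109, adjusted p = 0.00143, the acetyltransferases Crebbp, at -0.42 ± 0.0818, adjusted p = 0.00348, and Ep300, at -0.35 ± 0.0721, adjusted p = 0.00416, and the deubiquitinase Usp7, at -0.30 ± 0.0673, adjusted p = 0.00692. After 4-OHT, 2 of 18 fell. These were Ppm1d, the phosphatase Wip1 that p53 is known to induce, at -0.45 ± 0.0973, adjusted p = 0.0118, and Brd7, at -0.25 ± 0.0742, adjusted p = 0.0452. All genes were called lower in 6.45% of cases. In 8 of 10 cases of a left-out library only 1 was called lower, the exceptions being untreated mice 35 and 36, and 1 was called higher without mouse 36, untreated or after 4-OHT. The block called 3 lower, adding the acetyltransferase Kat5 (-0.26 ± 0.0833, adjusted p = 0.0479), and called the kinase Hipk2 higher (0.59 ± 0.138, adjusted p = 0.0178), against 11.9% lower and 13.8% higher over all genes. DESeq2 called 2 higher and 3 lower.

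Of 19 genes of the apoptosis machinery outside the 31, Casp8 rose after 4-OHT, at 1.60 ± 0.353, adjusted p = 0.0145, and the other 18 were not called, where 7.34% of all genes were higher. With the block 1 (Casp8) was called higher and 2 lower, against 13.8% and 11.9% of all genes. Among the 2 was Cycs, the gene of cytochrome c (-0.73 ± 0.178, adjusted p = 0.0199). After Trrap deletion 3 rose and 2 fell, 26.3% of the list, which was below the 31.7% of all genes. Without mouse 19 after 4-OHT 1 rose, and without Fl/Fl 28, 37 or 39 the number was 2. Casp2, the caspase that Pidd1 activates, was at -0.58 ± 0.122, adjusted p = 0.00463, the survival gene Bcl2 at 0.42 ± 0.102, adjusted p = 0.00972 and the adaptor Fadd at 0.31 ± 0.0859, adjusted p = 0.0188.

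**Figure D4:**
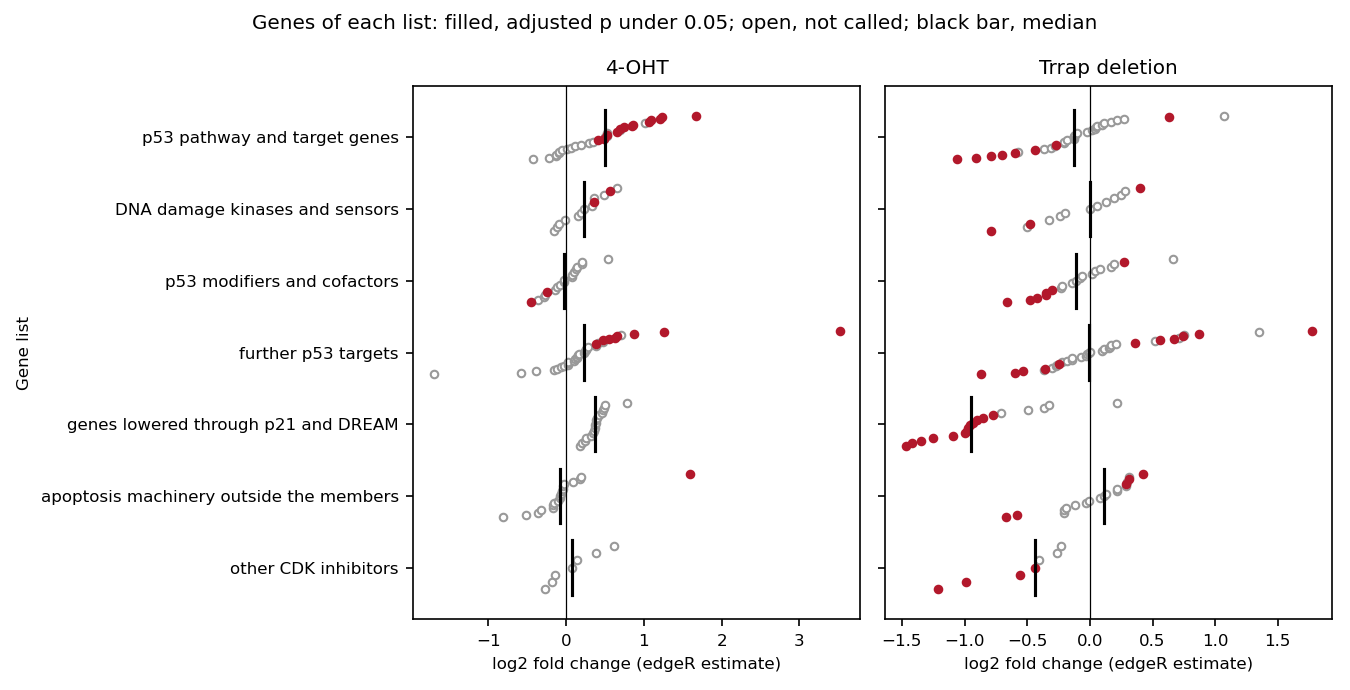
Log2 fold change (edgeR, without the mouse as a block) of every tested gene of each list after 4-OHT (left) and after Trrap deletion (right). Filled points had an adjusted p under 0.05, open points did not, and black bars are medians. The 31 genes have their median at 0.50 on the left. The list of genes that p53 is known to lower through p21 and DREAM has its median at -0.95 on the right.

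Some differences ran between mice of 1 group. Untreated cultures of mice 35 and 36 stood above those of mice 19, 24 and 26 in genes such as Ccng1, Zmat3, Trp53inp1, Tnfrsf10b, Eda2r and Aen, and below them in others such as Bbc3, Sesn1 and Xpc. The labels name no batch. With the series of mouse numbers (19 to 29 against 35 to 39) as a covariate, 17 of the 31 genes were called higher after 4-OHT and 0 lower, against 11.2% and 10.2% of all genes in that fit. After Trrap deletion 3 were then called higher and 8 lower, against 19.4% and 16.9%. Markers of oligodendrocytes moved with the treatment: 5 of 8 were called higher after 4-OHT and 0 lower, against 7.34% and 6.45% of all genes. Summed over these 8 genes, the range was 212 to 703 CPM in Fl/+ untreated, 562 to 1100 CPM in Fl/+ 4-OHT and 688 to 2750 CPM in Fl/Fl 4-OHT cultures, with Mog at 3 counts or fewer in every untreated library. Other markers moved too. After 4-OHT 1 of 6 astrocyte markers (Gfap) was called higher and 2 lower, and 1 of 10 stem cell markers higher and 2 lower. Of 7 neuron markers 0 were called after 4-OHT, and 2 (Dcx and Tubb3) were called lower after Trrap deletion, against 15.0% of all genes. Mitochondrial transcripts took 1.72% to 3.56% of the counts of Fl/+ untreated, 0.849% to 1.74% of Fl/+ 4-OHT and 1.36% to 2.19% of Fl/Fl 4-OHT libraries. The part of these in the changes of p53 pathway genes was not tested.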

How the data were processed

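The authors prepared stranded single-end libraries from the poly(A) RNA of 15 aNSC cultures and spread the pool of all of them across the same lanes. Reads were mapped by the authors with STAR 2.5.4b on GRCm38, and those with a unique position were counted per Ensembl gene by strand-aware featureCounts 1.5.0. The deposited table holds these unnormalized counts. Reads from near-identical copies of a gene were left out, and PCR copies were counted, so limits of detection cover counting error only. GENCODE M21 gave symbols and coordinates for 53706 of the 53801 Ensembl IDs. All 15 columns were used. Libraries held 25720034 to 32187097 counts.

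Each comparison was fitted on its own 10 libraries with edgeR 4.0.16 (R 4.3.3): filterByExpr with a minimum count of 10, TMM scaling, quasi-likelihood F test without covariates, and Benjamini-Hochberg adjustment over all genes tested, called under 0.05. CPM use TMM-scaled totals of all 15 libraries. Each SE comes from the same fit. Groups do not overlap where the lowest CPM of one exceeds the highest of the other. Labels and methods differ on the dose of 4-OHT, so none is given, and on how long it was present. Samples are separate cultures, and the Fl/+ groups share mice by their labels: over 14821 genes, deviations from group means correlated at r of 0.153 to 0.634 within a mouse and -0.559 to 0.35 between mice.

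Alternatives were DESeq2 1.42.0, its size factors in edgeR, library size alone, other filters on low counts, 1 fit for all libraries, labelled sex or mouse number series as a covariate, each library left out, and, for 4-OHT, the mouse as a replicate block. DESeq2 and left-out libraries for the wider lists were chosen after seeing the data. Named were all 31 genes, with values per library for Trp53, Mdm2, Mdm4, Cdkn1a and every member called after 4-OHT or Trrap deletion, and up to 4 called genes with the smallest p from each wider list. Of the called genes of the wider lists, 2 are not reported here. The members and all lists were chosen with earlier results of these data known.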

Additional observations from a re-analysis of the deposited data

Results flagged for a closer look

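In 93 combinations of a gene and a group of 5 libraries, 2 held a library far from the others of its group by Dixon's test, where chance gives about 1 in 20. Tnfrsf10b was at 11.3 CPM in the untreated culture of mouse 36, against 3.04 to 4.62 CPM in the other untreated cultures. Pidd1 was at 29.7 CPM in the culture of mouse 36 after 4-OHT, against 39.2 to 42.0 CPM in the other Fl/+ 4-OHT cultures. Without the respective library the log2 fold change after 4-OHT was 2.16 for Tnfrsf10b and 1.32 for Pidd1.

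Between the labelled sexes, 2 of the 31 genes moved in opposite directions after 4-OHT in every mouse. Bax had a median log2 change of -0.30 in the 3 males and 0.26 in the 2 females. Xpc had one of 0.13 in the 3 males and -0.34 in the 2 females. The males include mouse 36, whose library after 4-OHT held Xist at 74.7 CPM. How many of all genes split this way was not counted, and these differences were not tested.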

How the results depend on the processing

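Of 1738 values of single genes under an alternative, 1595 kept their direction and their side of the threshold, 55 lost the call, 50 gained one and 38 changed sign. All sign changes were in members that were not called, and the cause was not tested. Leaving out 1 library gave these ranges of log2 fold change. After Trrap deletion they were -0.06 to 0.07 for Ccng1, -0.16 to 0.04 for Phlda3, -0.24 to 0.30 for Pmaip1 and -0.0015 to 0.37 for Perp. After 4-OHT they were -0.10 to 0.05 for Bax, -0.24 to 0.15 for Bbc3, -0.17 to 0.02 for Xpc and -0.03 to 0.23 for Fdxr. Between Fl/Fl 4-OHT and Fl/+ untreated cultures they were -0.17 to 0.04 for Trp53inp1, -0.16 to 0.02 for Plk2 and -0.10 to 0.05 for Rrm2b. Library size alone gave 0.01 for Phlda3 after Trrap deletion, 0.01 for Bax after 4-OHT and, between Fl/Fl 4-OHT and Fl/+ untreated cultures, 0.01 for Trp53inp1, 0.04 for Plk2 and 0.05 for Rrm2b. The labelled sex as a covariate gave -0.05 for Pmaip1 after Trrap deletion and -0.04 for Bbc3 after 4-OHT. The mouse number series gave -0.02 for Pmaip1 after Trrap deletion, and DESeq2 size factors -0.0011 for Bbc3 after 4-OHT.

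The number of members called was 6 to 11 after Trrap deletion (8 in the main test), 10 to 17 after 4-OHT (13) and 11 to 18 between Fl/Fl 4-OHT and Fl/+ untreated cultures (14). Without 1 library the median over the 31 genes was -0.20 to -0.11 after Trrap deletion and 0.39 to 0.56 after 4-OHT. Over all genes, 2044 were called after 4-OHT, and with a library left out 1271 (without mouse 19 after 4-OHT) to 2522 (without untreated mouse 36), with 1311 without mouse 35 after 4-OHT. The count was 3170 with the mouse number series as a covariate and 3809 with the mouse as a replicate block. The block changed no other call of a member than those of Pmaip1, Eda2r, Perp and Sesn1.

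Left-out libraries added calls as well, at adjusted p between 0.026 and 0.0494. Without untreated mouse 36, Ddb2 was called lower and Eda2r higher after 4-OHT, and Bbc3 was called lower and Eda2r, Pidd1 and Sesn2 higher between Fl/Fl 4-OHT and Fl/+ untreated cultures. Without mouse 36 after 4-OHT, Btg2 and Fdxr were called lower after Trrap deletion and Phlda3 higher after 4-OHT. Without Fl/Fl 37, Gdf15 was called higher and Xpc lower after Trrap deletion, and Pidd1 higher against untreated cultures. Phlda3 was called higher without untreated mouse 35, after 4-OHT and in Fl/Fl cultures, and in the latter also without Fl/Fl 29. Perp was called higher after 4-OHT without untreated mouse 26.

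With 5 cultures a group, all Fl/Fl cultures came from other mice than the Fl/+ ones, so mouse and genotype cannot be told apart beyond the replicate spread. Dram1, Gdf15 and Perp rest on few counts.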
